A study of Macaca mulatta with 20 samples.

Results

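Helper and cytotoxic T cells of the same rhesus macaques were compared on 8 arrays, with 1 helper and 1 cytotoxic sample from each of 4 adult females. They are 8 of the 20 arrays of the series. The series has 4 blood populations (helper and cytotoxic T cells, B cells and monocytes), taken from the mononuclear cells of 5 females. Each female came from another social group and held another dominance rank, from 1 (high) to 5 (low). The helper samples carry titles ending in CD4 and the cytotoxic samples titles ending in CD8. The pairs are those of the animals of dominance rank 1, 2, 3 and 5. Both T cell arrays of the rank 4 animal were left out because its cytotoxic array lacks lineage transcripts, a choice made from measured values. No treatment is named in the labels, and how the cells were separated is not given there. With 1 animal per rank, the rank, the animal and its social group cannot be told apart. All 7303 probes were tested, of which 6055 carry 1 gene symbol and stand for 5236 genes.

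T cells carry the T cell receptor, whose signal passes through the CD3 chains. Helper T cells use the co-receptor CD4 to bind MHC class II, and cytotoxic T cells use CD8 to bind MHC class I. Most CD8 on cytotoxic T cells is a pair of an α chain (CD8A) and a β chain (CD8B). In macaques the α chain is also found without the β chain on natural killer (NK) cells and on some memory CD4+ T cells. Cytotoxic cells kill with granules that hold perforin, granzymes and granulysin, and they share many receptors with NK cells. Helper cells act mainly through cytokines and contact with other cells. Gene roles given here are those known from human and mouse.

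The co-receptors followed the labels in every pair. Values are on a log2 scale and are listed in the order of ranks 1, 2, 3 and 5 throughout. CD4 was at 8.38, 8.34, 8.59 and 8.85 in helper arrays and at 7.62, 7.69, 7.61 and 7.58 in cytotoxic arrays. CD8B was at 7.93, 8.01, 7.79 and 7.94 in helper arrays and at 9.32, 9.40, 8.92 and 9.37 in cytotoxic arrays. For neither gene did the groups overlap. The helper level of CD8B was close to its mean of 8.01 in monocytes and 7.90 in B cells, which do not carry it. CD8A behaved differently from CD8B in the helper arrays. It was at 13.90, 14.08, 13.84 and 14.36 in cytotoxic arrays, and in helper arrays it was at 10.62, 10.72, 9.50 and 11.29, against means of 8.21 in monocytes and 9.38 in B cells. The helper array of the rank 4 animal, which was not fitted, had CD8A at 8.31. The differences, helper minus cytotoxic, were 0.91 ± 0.10 log2 for CD4 (SE, n = 4 animals, adjusted p = 0.00534), -1.33 ± 0.06 for CD8B (adjusted p = 0.000555) and -3.51 ± 0.19 for CD8A (adjusted p = 0.000577). CD8A has 2 probes, and the other gave -3.55 ± 0.19. These 3 genes name the sorted cells, so their differences check the labels.

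**Figure D1:**
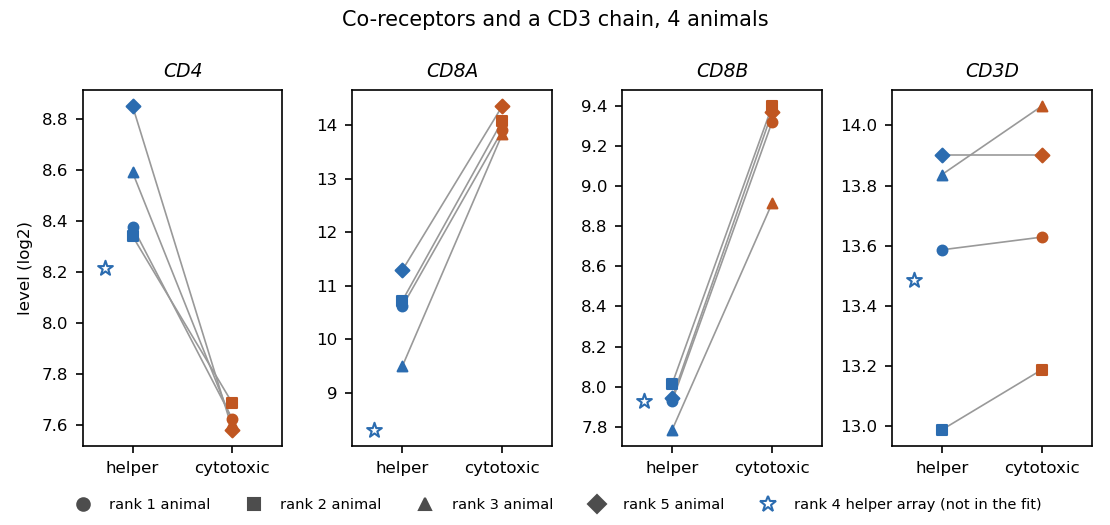
Levels (log2, deposited normalized values) of CD4, CD8A, CD8B and the CD3 chain CD3D in helper (blue) and cytotoxic (orange) T cell arrays, with a grey line joining the 2 arrays of an animal and a symbol for each animal. CD4 is higher in all 4 helper arrays and CD8B in all 4 cytotoxic arrays, CD8A is at 9.50 to 11.29 in the helper arrays, and the open star gives the rank 4 helper array.

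Transcripts of other blood cells were low and level in both types, apart from NK cell genes and globins. The 11 measured monocyte markers had no member that passed the test, and their mean level per array was 7.85 to 7.94 in helper and 7.85 to 7.96 in cytotoxic arrays, against 11.96 in monocytes. CD79B, which signals for the B cell receptor, was at most 8.34 in the 8 arrays and had a mean of 13.60 in B cells. Of 6 B cell markers only CR2, the complement receptor 2, differed, at 0.38 ± 0.07, and it missed the threshold without rank 1, 3 or 5 (adjusted p at most 0.0948). Its means were 8.56 in helper arrays, 8.19 in cytotoxic arrays and 8.36 in B cells, so this probe did not mark B cells here. The 3 platelet markers had array means of 7.88 to 7.94. The 6 red cell genes, globins among them, were abundant, with array means of 9.55 to 10.63 in helper and 9.40 to 10.74 in cytotoxic arrays, and none passed. Of 5 measured NK cell markers 3 were higher in cytotoxic arrays, where 3.51% of all genes were. These 3, NCR3, KLRC1 and KLRF1, are counted again among the killer cell receptors below. The mean of the NK cell list per array was 7.87 to 8.08 in helper and 8.43 to 8.64 in cytotoxic arrays. NCAM1 and FCER1G, which mark NK cells in humans, were between 7.61 and 7.81 in all 8 arrays. In the monocytes of these macaques NCAM1 had a mean of 10.64. The series has no NK cell array, so the low levels of NCAM1 and FCER1G do not tell whether NK cells are present or absent. The part of NK cells in the results below was not tested. In bulk RNA, fewer cells of a type and less RNA per cell cannot be told apart.

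Between the paired populations 466 of 7303 probes differed at an adjusted p under 0.05 (6.38%). Of these, 226 were higher in helper cells (3.09%) and 240 were lower (3.29%). All 466 had the same sign in 4 of 4 animals, as had 27.2% of all probes. For 196 of the 466 the groups did not overlap, where 2.79% of all probes had every helper array above every cytotoxic array and 2.55% had every one below. Taken by gene, 366 of 5236 passed (6.99%). The cytotoxic side held the larger differences. Of the 466 called probes, 19 were higher and 26 lower in helper cells by at least 1 log2. Over all probes the median absolute difference was 0.06 log2, so most transcripts lay close together in the 2 T cell types. Without the animal in the model 28 probes passed (9 higher, 19 lower), all of them among the 466. The total was 83 without the rank 1 animal, 430 without rank 2, 215 without rank 3 and 155 without rank 5. An exact sign-flip test of 1 gene over 4 pairs cannot go below p = 0.125, so calls rest on the spread that limma pools over probes.

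**Figure D2:**
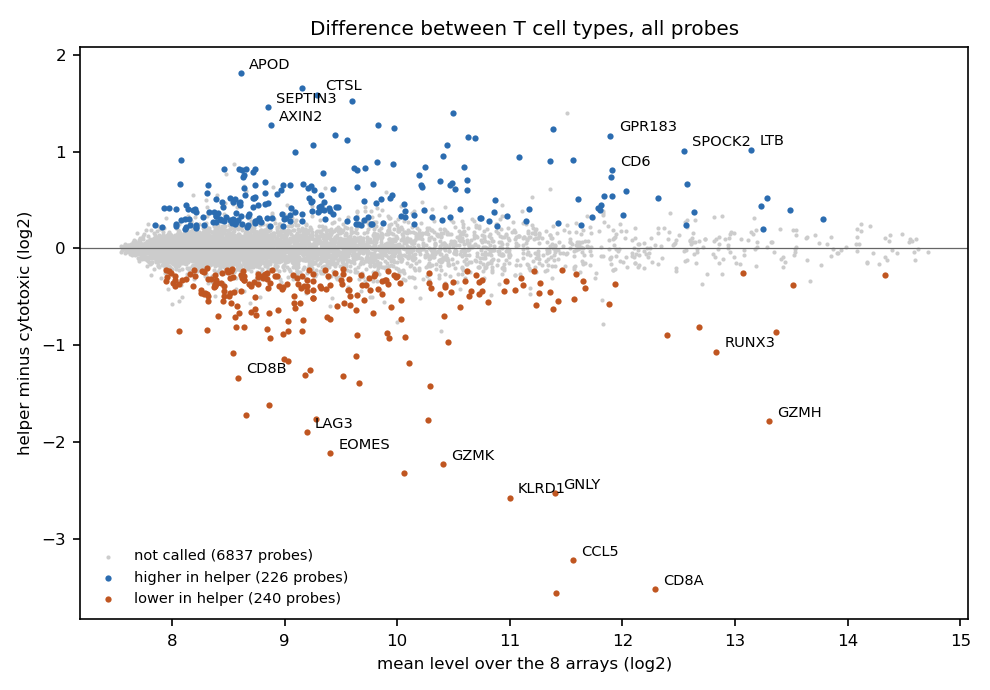
Difference between helper and cytotoxic T cells (log2, helper minus cytotoxic, mean of 4 animals) against the mean level of each probe over the 8 arrays (log2), for all 7303 probes. Blue and orange points passed at an adjusted p under 0.05, and the longest tail is that of probes lower in helper cells, led by CD8A and CCL5.

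Of 12 measured granule genes 7 were lower in helper cells, where 3.51% of all genes were, and 11 of 12 had that sign in every animal. Their median difference was -1.27 log2, against 0.00 over all genes. GNLY, which encodes granulysin, a pore-forming antimicrobial protein, was at 13.03, 11.69, 13.03 and 12.91 in cytotoxic arrays. In helper arrays it was at 10.19, 9.68, 9.51 and 11.18, a difference of -2.53 ± 0.27 (adjusted p = 0.00531). The groups did not overlap, and the rank 2 animal had the lowest cytotoxic level. GZMK, a granzyme of memory T cells, was at 11.53, 10.55, 11.98 and 12.02 in cytotoxic and at 8.54, 8.99, 9.73 and 9.93 in helper arrays (-2.22 ± 0.20, adjusted p = 0.00259). GZMH was bright in both types, at 14.34, 13.85, 14.19 and 14.38 in cytotoxic and 12.43, 12.75, 11.69 and 12.76 in helper arrays (-1.78 ± 0.20). In monocytes its mean was 8.19, below every one of the 4 helper arrays. Probes of near-identical granzymes may share signal.

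The other 4 called granule genes differed by less than GZMH. CST7, the cystatin that controls granule proteases, differed by -1.77 ± 0.17, and GZMA, the tryptase granzyme, by -1.76 ± 0.25. NKG7, a membrane protein of granules, differed by -1.38 ± 0.19. PRF1, which encodes perforin, was at 9.40, 9.98, 9.53 and 9.53 in cytotoxic and at 8.34, 8.65, 8.20 and 8.62 in helper arrays (-1.16 ± 0.08, adjusted p = 0.000995). It had the smallest SE of the 7. The remaining members missed the threshold, with -0.27 ± 0.08 for the death ligand FASLG, -0.20 ± 0.05 for RAB27A, which docks granules, -0.17 ± 0.05 for CTSC, which activates granzymes, -0.14 ± 0.05 for the granule proteoglycan SRGN and 0.13 ± 0.05 for TNFSF10. Without the rank 1 animal 3 of the 7 passed. GNLY (adjusted p = 0.0535), GZMH (0.0535), NKG7 (0.0646) and GZMA (0.0809) then missed the threshold, and GZMA did so also without rank 5 (0.0565).

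CCL5, a chemokine that effector T cells store and release, had the largest difference after CD8A. It was at 13.66, 12.81, 12.92 and 13.26 in cytotoxic arrays and at 9.98, 10.37, 8.86 and 10.60 in helper arrays (-3.21 ± 0.26, adjusted p = 0.0019). The groups were more than 2 log2 apart at their nearest values. CX3CR1, the fractalkine receptor of effector cells, differed by -0.50 ± 0.05 (adjusted p = 0.00324), with overlapping groups and the rank 2 animal highest in both types. The other 3 of 5 measured effector memory genes did not pass, with 0.03 ± 0.09 for ANXA1, 0.03 ± 0.05 for ADGRG1 and -0.16 ± 0.07 for S100A4.

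Receptors of killer cells were lower in helper cells in 7 of 8 measured cases, where 3.51% of all genes were lower. Their median difference was -0.85 log2. KLRD1, the CD94 chain that pairs with NKG2 receptors, was at 12.17, 11.49, 12.79 and 12.69 in cytotoxic and at 9.47, 9.69, 9.57 and 10.13 in helper arrays (-2.57 ± 0.20, adjusted p = 0.00137). Its second probe gave -2.32 ± 0.16. KLRF1, the activating receptor NKp80, was at 9.86, 9.39, 9.69 and 10.39 in cytotoxic and at 8.33, 8.44, 8.23 and 9.09 in helper arrays (-1.31 ± 0.10). KLRG1, an inhibitory receptor of differentiated T cells, had the largest SE of the list. It was at 9.04, 9.12, 10.90 and 10.36 in cytotoxic and 8.03, 8.65, 8.92 and 8.81 in helper arrays (-1.26 ± 0.22, adjusted p = 0.0238). The adaptor HCST (DAP10) differed by -0.86 ± 0.13, KLRC1 (NKG2A) by -0.84 ± 0.15, NCR3 (NKp30) by -0.70 ± 0.09 and KLRB1 (CD161) by -0.47 ± 0.08. NCAM1 was the member that did not pass (-0.02 ± 0.04). Probes of near-identical family members, such as the KLRC genes, may share signal. Without the rank 1 animal 2 of the 7 passed, KLRD1 and KLRF1. The adjusted p values of the other 5 then ran from 0.0604 for NCR3 to 0.101 for KLRG1, and 4 of 7 passed without rank 5.

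**Figure D3:**
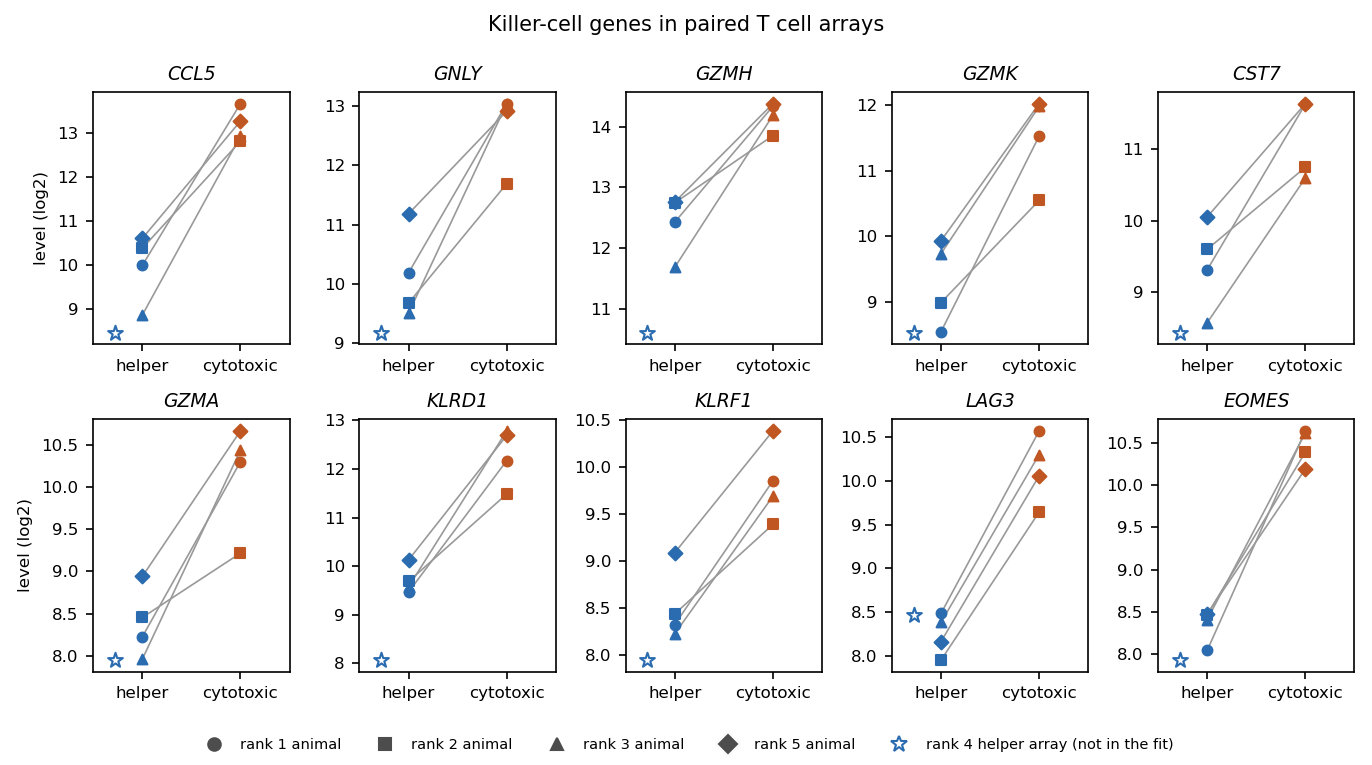
Levels (log2) of 10 genes of the cytotoxic side in helper (blue) and cytotoxic (orange) arrays, with lines joining the arrays of an animal and a separate scale for each gene. No helper array reaches a cytotoxic array, and the rank 4 helper array (open star) lies below the other helper arrays for 9 of the 10 genes, LAG3 being the exception.

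Of 5 measured inhibitory receptors LAG3 and CD96 were lower in helper cells and CTLA4 was higher. Over all genes 3.51% were lower and 3.48% higher. LAG3, which binds MHC class II and restrains T cells, was at 10.57, 9.64, 10.30 and 10.06 in cytotoxic and at 8.49, 7.95, 8.38 and 8.16 in helper arrays. Its difference of -1.90 ± 0.07 had the smallest adjusted p among the genes named here (0.000198). The animals kept the same order in both types, and its differences ran from -1.69 to -2.09. CD96, a receptor of the nectin-binding family, differed by -1.32 ± 0.09 (adjusted p = 0.000995). CTLA4, the inhibitor of CD28 signalling, was higher in helper cells by 0.45 ± 0.07 (adjusted p = 0.0156), and it missed the threshold without rank 1 or 3 (adjusted p at most 0.0813). BTLA (0.19 ± 0.06) and CD300A (-0.04 ± 0.04) did not pass.

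Transcription factors of the cytotoxic lineage were lower in helper cells in 5 of 9 measured cases, where 3.51% of all genes were lower. All 9 had a difference below 0. EOMES, a T-box factor of effector and memory CD8+ T cells, was at 10.64, 10.39, 10.62 and 10.19 in cytotoxic and at 8.04, 8.47, 8.41 and 8.48 in helper arrays (-2.11 ± 0.13, adjusted p = 0.000995). Its cytotoxic values spanned less than 0.5 log2. RUNX3, which silences CD4 in the CD8 lineage, was at 13.51, 13.60, 13.35 and 13.01 in cytotoxic and at 12.42, 12.65, 12.12 and 12.02 in helper arrays (-1.06 ± 0.06, adjusted p = 0.000577). A second and dim RUNX3 probe, near 8 log2, gave -0.05 ± 0.05 and did not pass. ID2, an inhibitor of E proteins, differed by -0.89 ± 0.11, STAT4, which acts downstream of interleukin 12, by -0.61 ± 0.12, and HOPX by -0.24 ± 0.05. PRDM1 (-0.31 ± 0.11), BHLHE40 (-0.30 ± 0.15), TOX (-0.21 ± 0.06) and IKZF3 (-0.13 ± 0.05) did not pass. STAT4 (adjusted p up to 0.142) and HOPX (up to 0.162) missed the threshold in most fits that left out 1 animal, and 3 of the 5 passed without rank 1, 3 or 5. ZBTB7B, the helper lineage factor that opposes RUNX3, was between 8.16 and 8.29 in all 8 arrays (-0.02 ± 0.04).

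Genes outside the lists also stood on the cytotoxic side. SPRY2, an antagonist of Ras signalling, was at 9.34, 8.70, 9.85 and 10.17 in cytotoxic and at 7.62, 8.26, 7.67 and 7.63 in helper arrays (-1.72 ± 0.31, adjusted p = 0.0247). PRSS57, a serine protease known from neutrophils, was at 9.72, 8.56, 10.53 and 9.84 against 8.11, 7.93, 8.12 and 8.06 (-1.61 ± 0.25). In both genes the rank 2 animal had the lowest cytotoxic level. PPP2R2B, a regulatory subunit of protein phosphatase 2A, differed by -1.42 ± 0.18, and MCOLN2, an endolysosomal cation channel, by -1.19 ± 0.22. None of these 4 passed in every fit that left out 1 animal, with adjusted p values of up to 0.124, 0.0926, 0.0624 and 0.127. Of 3 measured genes of the MHC class II list only CD74, the invariant chain, passed, and it was lower in helper cells. Over all genes 3.51% were lower. HLA-DQB1 (-0.07 ± 0.05) and CIITA (0.02 ± 0.05) did not pass. CD74 was at 9.30, 8.71, 8.78 and 8.70 in cytotoxic and between 8.26 and 8.31 in helper arrays (-0.59 ± 0.10, adjusted p = 0.02). Both types lay far below the monocyte and B cell means of 12.93 and 12.79, and CD74 missed the threshold without rank 3 or 5 (adjusted p at most 0.0582).

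Levels of cytotoxic genes in the helper arrays were not uniform across animals, and several moved with CD8A. Among the 4 fitted helper arrays CD8A was lowest in rank 3 and highest in rank 5. Of the other 19 genes with the largest differences on the cytotoxic side, 8 had both their lowest and their highest helper level in those same arrays (42.1%), as had 3.75% of all probes. These 8 were CCL5, GNLY, GZMH, GZMA, CST7, NKG7, KLRF1 and MCOLN2. The cytotoxic arrays also had CD8A lowest in rank 3 (13.84) and highest in rank 5 (14.36), so this order was shared by both types. Of the 8 genes only CST7 had its lowest and highest cytotoxic levels in those animals. The others were lowest in the rank 2 cytotoxic array. The rank 4 helper array, where CD8A was at 8.31, lay below all 4 other helper arrays for 15 of the 20 genes. That happened for 17% of all probes. In that array KLRD1 was at 8.07, CCL5 at 8.45 and GZMH at 10.61, against at least 9.47, 8.86 and 11.69 in the other helper arrays. The CD3 chain CD3D was at 13.49 there, within the 12.99 to 13.90 of the other helper arrays. CD8B stayed between 7.79 and 8.01 in all 5 helper arrays. Among the 4 fitted ones it was lowest in rank 3, as CD8A was, and highest in rank 2. These levels are near its means in monocytes (8.01) and B cells (7.90), so whether it moved with CD8A cannot be read from them. Whether cells with CD8A and without CD8B, or cells with both chains, account for the levels of the cytotoxic genes was not tested.

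On the helper side the largest differences belonged to genes of several kinds. APOD, a lipocalin that carries lipids, was at 9.77, 8.21, 8.99 and 11.09 in helper and at 7.62, 7.73, 7.59 and 7.88 in cytotoxic arrays (1.81 ± 0.38, adjusted p = 0.0428). It had the largest SE of the genes named, with differences from 0.48 in rank 2 to 3.21 in rank 5, and missed the threshold without rank 1, 3 or 5 (adjusted p at most 0.194). CTSL, a lysosomal cathepsin, was far steadier, at 10.40, 10.16, 10.28 and 9.46 in helper and 8.47, 8.98, 8.48 and 8.03 in cytotoxic arrays (1.59 ± 0.12, adjusted p = 0.00133). A second probe of CTSL gave 1.66 ± 0.17. CTSH, another lysosomal protease, differed by 1.17 ± 0.13, and its second probe by 0.41 ± 0.07. Both cathepsins were higher still in monocytes, at means of 12.45 and 12.92. SEPTIN3, a cytoskeletal GTPase, was at 9.53, 9.43, 9.75 and 9.60 in helper and at 8.08, 8.24, 8.12 and 8.05 in cytotoxic arrays (1.46 ± 0.08, adjusted p = 0.000577). Within each type its 4 arrays lay within 0.4 log2.

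**Figure D4:**
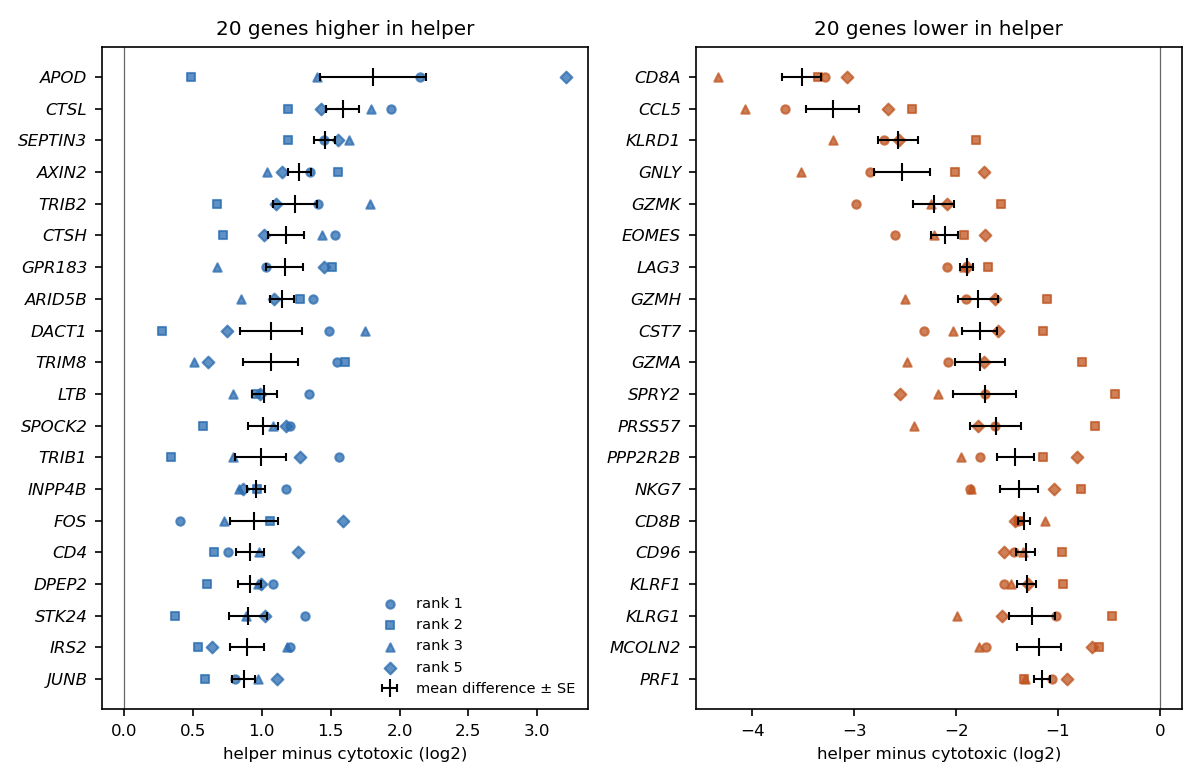
Helper minus cytotoxic difference (log2) of the 20 genes with the largest differences on each side, with a symbol for each animal and a black tick with bars for the mean ± SE of the paired fit. The rank 2 animal (squares) has the smallest difference for 13 genes on the helper side and 14 on the cytotoxic side.

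Of the Wnt pathway, which acts through β-catenin and LEF/TCF factors, 2 of 11 measured genes were higher in helper cells, where 3.48% of all genes were, and none was lower. AXIN2, a feedback inhibitor and target of the pathway, was at 9.55, 9.84, 9.26 and 9.39 in helper and at 8.20, 8.28, 8.22 and 8.24 in cytotoxic arrays (1.27 ± 0.09, adjusted p = 0.000995). TRIB2, a pseudokinase, was at 10.62, 10.07, 11.09 and 10.58 against 9.22, 9.39, 9.31 and 9.48 (1.24 ± 0.16, adjusted p = 0.00994). Without the rank 1 animal TRIB2 missed the threshold (adjusted p = 0.0671). LEF1, the transcription factor of the pathway, had the largest mean difference of the list, 1.40 ± 0.34, and did not pass with its brighter probe (adjusted p = 0.0613). Its cytotoxic levels were 9.73, 11.51, 10.65 and 11.36, while its helper levels stayed between 11.94 and 12.51. The dimmer LEF1 probe passed (0.76 ± 0.13, adjusted p = 0.0232). DACT1, which binds Dishevelled and is not in the list, differed by 1.07 ± 0.23 (adjusted p = 0.0431), with overlapping groups, and it missed the threshold without rank 1, 3 or 5 (adjusted p at most 0.196). The other 8 genes, among them CTNNB1, GSK3B, AXIN1 and TLE3, lay between -0.21 and 0.12.

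Of 11 genes of naive and central memory T cells 2 were higher in helper cells and none was lower, with a median of 0.28 log2, where 3.48% of all genes were higher. LEF1, also in this list, had its largest difference (1.40 ± 0.34) without passing. IL7R, the interleukin 7 receptor, was at 11.72, 12.03, 12.84 and 12.69 in helper and at 10.73, 11.39, 12.44 and 12.37 in cytotoxic arrays (0.59 ± 0.11, adjusted p = 0.0272). Its groups overlapped, since ranks 3 and 5 were higher than ranks 1 and 2 in both types. ACTN1, a cytoskeletal actinin, differed by 0.65 ± 0.10. Both missed the threshold without rank 1, 3 or 5, and IL7R also without rank 2 (adjusted p at most 0.0655). BACH2 (0.45 ± 0.13), FOXP1 (0.28 ± 0.08) and MYC (0.41 ± 0.20) had positive differences without passing. CD28 (0.07 ± 0.06) and KLF2 (-0.05 ± 0.06) did not pass either, with 95% intervals of -0.07 to 0.20 and -0.19 to 0.10.

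Shared T cell surface genes were split between the types. CD6, a co-receptor that binds ALCAM, was at 12.23, 12.26, 12.21 and 12.54 in helper and at 11.54, 11.32, 11.46 and 11.68 in cytotoxic arrays (0.81 ± 0.06, adjusted p = 0.000995). CD5, a brake on receptor signalling, differed by 0.65 ± 0.06, TRAT1, a receptor-associated adaptor, by 0.76 ± 0.08, and the T cell factor BCL11B by 0.54 ± 0.05. The CD3 chains went the other way or did not pass. CD3G was lower in helper cells by a small step in all 4 animals (-0.33 ± 0.05, adjusted p = 0.0117), while the animals themselves ranged from 10.18 to 12.22 in helper arrays. CD3D (-0.12 ± 0.06) and CD3E (-0.16 ± 0.09) did not pass, nor did CD2 (0.01 ± 0.10). Of 9 measured genes 4 were thus higher and 1 lower in helper cells, where 3.48% of all genes were higher and 3.51% lower. The 4 passed without any 1 animal, and CD3G missed the threshold without rank 1 (adjusted p = 0.0601).

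Signalling genes downstream of the T cell receptor gave 2 higher and 2 lower of 11 measured. The shares over all genes were 3.48% higher and 3.51% lower. SOS1, a Ras activator, was higher in helper cells by 0.52 ± 0.05, and RCAN3, a calcineurin regulator, by 0.81 ± 0.18 (adjusted p = 0.0462, lost without rank 1 or 5 with at most 0.178). The phosphatases PTPN22 (-0.62 ± 0.07) and DUSP22 (-0.40 ± 0.05), which both restrain receptor signalling, were lower, DUSP22 not without rank 1 (adjusted p = 0.0584). PTPN22 was at 8.85, 9.06, 9.23 and 9.04 in cytotoxic and between 8.32 and 8.56 in helper arrays. The kinases ZAP70 (-0.20 ± 0.05) and FYN (0.11 ± 0.05) and the adaptors LAT (0.23 ± 0.07) and LCP2 (0.24 ± 0.08) did not pass.

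Of 10 measured genes of helper polarisation CTLA4 and IL6R were higher and none was lower, where 3.48% of all genes were higher. IL6R, the interleukin 6 receptor chain, differed by 0.39 ± 0.06 (adjusted p = 0.0117, and 0.0586 without rank 5). MYB (0.34 ± 0.08) and CXCR5, the follicular homing receptor (0.25 ± 0.06), had positive differences in every animal without passing. FOXP3, GATA3 and CD40LG were not analysed here. LTB, lymphotoxin β, a cytokine of lymphoid tissue, was at 13.40, 13.26, 13.92 and 14.02 in helper and at 12.06, 12.31, 13.13 and 13.03 in cytotoxic arrays (1.02 ± 0.09, adjusted p = 0.0022). GPR183, an oxysterol receptor that guides cells within lymphoid tissue, was at 12.75, 12.83, 12.32 and 12.01 against 11.72, 11.32, 11.64 and 10.56 (1.16 ± 0.14). Its second probe gave 1.12 ± 0.14, and without rank 1 the brighter probe missed the threshold (adjusted p = 0.053).

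Several regulators of signalling and transcription completed the helper side. ARID5B, a DNA-binding chromatin regulator, was at 11.15, 11.03, 11.61 and 11.02 in helper and 9.78, 9.76, 10.75 and 9.93 in cytotoxic arrays (1.15 ± 0.09, adjusted p = 0.00133). INPP4B, a phosphoinositide phosphatase, was at 11.29, 10.52, 11.10 and 10.64 against 10.11, 9.56, 10.27 and 9.78 (0.96 ± 0.07, adjusted p = 0.000995). Its differences ran from 0.83 to 1.18 over the 4 animals. SPOCK2, a matrix proteoglycan, differed by 1.01 ± 0.11, and the dipeptidase DPEP2 by 0.91 ± 0.08. TRIM8 (1.07 ± 0.20), TRIB1 (0.99 ± 0.18), the kinase STK24 (0.90 ± 0.14) and the insulin receptor substrate IRS2 (0.89 ± 0.12) passed with 4 animals. Each of these 4 missed the threshold without rank 1, with adjusted p values over their leave-one-out fits of up to 0.135, 0.107, 0.074 and 0.0646. A second, dim STK24 probe did not pass (0.18 ± 0.05).

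Of 10 measured immediate early genes, which respond rapidly to stimuli, 2 were higher in helper cells and none was lower. Over all genes 3.48% were higher and 3.51% lower. FOS was at 12.92, 9.62, 12.13 and 11.54 in helper and at 12.52, 8.55, 11.41 and 9.95 in cytotoxic arrays (0.94 ± 0.17, adjusted p = 0.0272). Every animal had more FOS in helper cells, but the groups overlapped and the rank 2 animal was lowest in both types. JUNB followed the same order of types and the same lowest animal (0.87 ± 0.09, adjusted p = 0.00382). FOS missed the threshold when any 1 animal was left out (adjusted p at most 0.0666), and JUNB did not. EGR1 (-0.57 ± 0.15), FOSB (-0.44 ± 0.21), NR4A2 (-0.30 ± 0.13) and JUN (0.36 ± 0.11) did not pass, and they did not share a direction.

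Among adhesion, homing and cytokine receptor genes both directions occurred. ITGB7, the β7 integrin chain of gut homing, was higher in helper cells (0.74 ± 0.11, adjusted p = 0.0163), with the rank 2 animal at 10.99 and the others at 12.65 to 12.74. ITGA6, the laminin receptor chain, was higher by 0.30 ± 0.07. CXCR4, the receptor of the chemokine CXCL12, was lower by a similar amount with each of its 2 probes (-0.33 ± 0.05 and -0.34 ± 0.05). IL2RG, the common cytokine receptor chain (-0.26 ± 0.05), and TGFBR2 (-0.36 ± 0.08) were lower as well, and a second TGFBR2 probe did not pass (-0.10 ± 0.08). This made 2 higher and none lower of 8 adhesion genes, none higher and 2 lower of 7 homing genes, and 2 higher and 2 lower of 7 cytokine receptors, where 3.48% of all genes were higher and 3.51% lower. ITGB7, ITGA6, CXCR4, IL2RG and TGFBR2 each missed the threshold in at least 3 of the 4 fits that left out 1 animal (adjusted p at most 0.0948, 0.154, 0.0759, 0.146 and 0.206).

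The lists of general cell functions held at most 1 called gene each. Over all genes 6.99% passed in either direction. With so few genes per list, 1 called gene or none cannot be told from that share. HLA-F was the 1 called gene of 9 for MHC class I presentation (-0.37 ± 0.08) and IFI6 the 1 of 9 type I interferon genes (-0.38 ± 0.06). Both missed the threshold without rank 1 (adjusted p at most 0.154 and 0.0635 over these fits). ISG15 was at 10.09 in the helper and 8.62 in the cytotoxic array of rank 5, and level in rank 2 at 7.83 and 7.84, so its mean of 0.60 ± 0.22 did not pass. Of 10 glucocorticoid-responsive genes only CXCR4 was called. None of the 8 cell cycle genes and 3 ribosomal protein genes passed by limma. At an unadjusted p under 0.05 there were 2 cell cycle genes and no ribosomal protein gene, and none of the monocyte, platelet and red cell markers. With an intensity trend 1 cell cycle gene passed. Of 3 measured genes of gamma delta and invariant T cells KLRB1 was the 1 called.

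**Figure D5:**
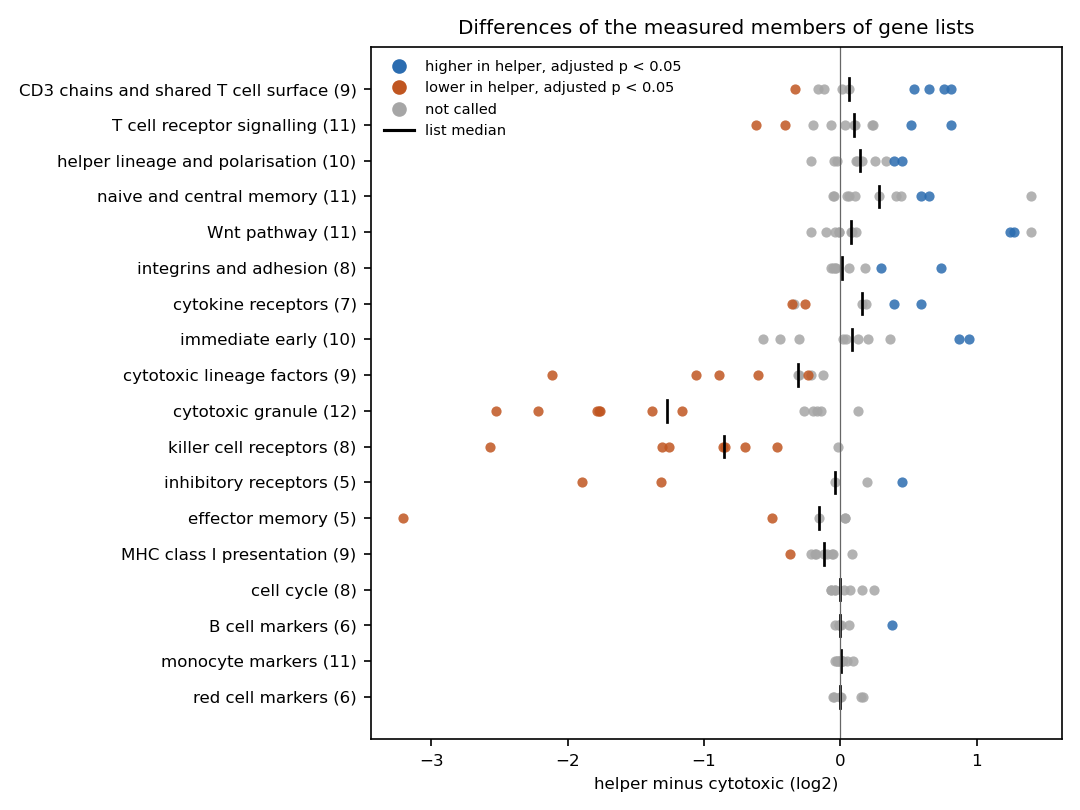
Helper minus cytotoxic difference (log2) of the measured members of 18 gene lists, with the number of measured genes in brackets, points coloured by the outcome of the test and a black bar at the list median. Killer cell receptors, cytotoxic lineage factors and the granule genes other than TNFSF10 (0.13) lie to the left of 0. Monocyte, red cell and cell cycle genes lie around it.

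Over the 226 probes higher in helper cells the median difference was 0.48 in rank 1, 0.31 in rank 2, 0.44 in rank 3 and 0.43 log2 in rank 5. Over the 240 lower probes it was -0.49, -0.35, -0.43 and -0.39 in the same order. The rank 2 animal had the smallest difference for 51.8% of the higher and 41.7% of the lower probes, against 27.2% over all probes. Of the 20 genes with the largest differences on the cytotoxic side, the rank 2 cytotoxic array was the lowest of the 4 for 13 (65%), among them GNLY, GZMK and KLRD1, and the highest for PRF1, CD8B and PPP2R2B. Over all probes it was the lowest for 27.8% and the highest for 28.8%. With 1 animal per rank no trend along rank was tested. For 205 of the 366 called genes (56.0%) the range over the 4 helper arrays was larger than the step between the types, as it was for 4858 of all 5236 genes (92.8%).

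In monocytes and B cells of the same 4 animals the called probes had a mixed standing. Of the 226 probes higher in helper than cytotoxic cells, 137 had their highest mean of the 4 populations in helper cells (60.6%), 52 in monocytes and 37 in B cells. Of the 240 lower probes, 145 had it in cytotoxic cells (60.4%), 56 in monocytes and 39 in B cells. Over all probes helper cells held the highest mean for 18.5% and cytotoxic cells for 19.3%, and the tested contrast raises these shares among called probes by itself. SPOCK2 (8.05 in monocytes and 8.78 in B cells) and INPP4B (7.93 and 7.86) were examples low in both other populations. GPR183 was highest in B cells (13.13), and TRIB1 (13.14) and CTSH (12.92) in monocytes.

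The helper array of the rank 4 animal took no part in the fit, although it was normalized together with the others. For 185 of the 226 probes higher in helper cells (81.9%) its level lay nearer the helper mean than the cytotoxic mean of the other animals, and for 223 of the 240 lower probes (92.9%). Over all probes this share was 62.8%. It lay above every cytotoxic array for 19 of the 20 largest genes of the helper side, DACT1 being the exception (8.98 against up to 9.29). It lay below every cytotoxic array for all 20 of the cytotoxic side. These genes were picked for large differences in the other animals, and the same counts over all probes were not made. AXIN2 was at 10.08 and SEPTIN3 at 9.21 in this array.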

How the data were processed

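Per the labels' protocols, total RNA was extracted on Qiagen columns with DNase, and biotinylated cRNA was made for Illumina arrays. The submitters' processing notes name lumi. Neither its steps nor the probe filter is stated in the sources used here. The deposited log2 values had been brought by the authors to 1 distribution (median 8.39, range 7.50 to 14.77 in each array). Both deposited tables hold identical values, so raw intensities were not used. The log base is not stated, and log2 was assumed. Replicate number limits the precision. Probes were designed for human transcripts and were compared only with themselves.

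Samples were grouped by their labels. Probes were named by the platform annotation (1247 without a symbol), and 701 genes have several probes, described by the brightest over the 8 arrays. limma 3.58.1 in R 4.3.3 fitted cell type with the animal as a block (lmFit, eBayes). p-values were two-sided and adjusted by Benjamini-Hochberg over all 7303 probes, with a threshold of 0.05. Errors are SE of the paired difference. The code was tested on simulated data. The titles give 1 animal code per rank, and deviations from type means correlated at 0.719 to 0.818 within animals.

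Members and the 27 gene lists (184 of 397 listed genes measured) were chosen with earlier results of these data known. Named genes are the 20 largest differences per side with the same sign in 4 of 4 animals, called list members and the co-receptors. Values of list members that did not pass are given beside them. Alternatives changed the block, the arrays, eBayes, the filter, the scaling and the probe rule.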

Additional observations from a re-analysis of the deposited data

Results flagged for a closer look

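Among the genes named, each group of 4 arrays was searched for 1 array far from the other 3 by Dixon's ratio, and 9 of 142 groups passed its 95% critical value for groups of 4. Chance flags about 1 in 20 groups. CD6 in the helper array of rank 5 (12.54) lay above the other helper arrays (12.21 to 12.26). ITGB7 in rank 2 was low in both the helper array (10.99 against 12.65 to 12.74) and the cytotoxic array (10.72 against 11.72 to 11.84). IFI6 was high in the rank 1 helper array (11.17 against 9.86 to 10.05). CD74 was high in the rank 1 cytotoxic array (9.30 against 8.70 to 8.78). CD8B was low in the rank 3 cytotoxic array (8.92 against 9.32 to 9.40). SPRY2 was high in the rank 2 helper array (8.26 against 7.62 to 7.67), and EOMES was low in the rank 1 helper array (8.04 against 8.41 to 8.48). GNLY was low in the rank 2 cytotoxic array (11.69 against 12.91 to 13.03).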

How the results depend on the processing

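The count of 466 probes (226 higher, 240 lower) was 28 (9 and 19) without the replicate block, 140 (62 and 78), 137 of them among the 466, with 16 arrays of the 4 cell types, and 0 by limma (0 and 0, 395 at an unadjusted p under 0.05) with the 10 arrays that include the rank 4 pair, whose cytotoxic array lacks lineage transcripts. Leaving out 1 animal gave 83 to 430 probes (38 to 227 higher, 45 to 203 lower), with the lowest count without rank 1 and 3 pairs in each fit. The trend, the robust fit, the filter on dim probes, cyclic loess and the other table gave 568, 462, 504, 478 and 466. Of the 71 named genes 31 passed without any 1 animal, 15 without the block and 45 with 16 arrays. Their direction reversed only with the 10 arrays, in CD3G (0.20), CXCR4 (0.22), TGFBR2 (0.31) and HCST (0.0925). The trend ended the calls of CXCR4 and TGFBR2, cyclic loess that of ITGA6 and the mean over probes that of TGFBR2. Of 54 counts of list members, 21 moved by more than 1.5 times or fell to 0 without rank 1, and 25 without the block. Many of the others were 0 in the main fit and stayed at 0. Among the counts above 0, only those of the co-receptors held without the block.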

Other observations

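Some genes parted the animals far more than the T cell types, and the following were chosen after their values were seen, from those with a wide range of animal means. In helper arrays CCDC134 had levels of 12.46 (rank 2) and 11.17 (rank 3) against 7.57 (rank 1) and 7.69 (rank 5). The cytotoxic arrays gave 12.65 and 10.88 against 7.69 and 7.61. Monocytes gave 12.35 and 10.57 against 7.62 and 7.66, and B cells 13.17 and 11.73 against 7.63 and 7.64, in the same animals. In rank 4 it was at 10.96 in helper T cells and 10.93 in monocytes, but at 7.75 in the cytotoxic and 7.79 in the B cell array. That cytotoxic array is the one that lacks lineage transcripts. The rank 4 B cell array also stood apart in FOS (7.87, others at least 9.16) and HBA2 (14.19, others at most 13.81). These low values of CCDC134 can therefore not be read as a difference between cell types. In the 4 fitted animals CCDC134 differed between the T cell types by 0.01 ± 0.08 log2. RHEB, a GTPase that activates mTOR, was highest in rank 1 in each of the 4 populations (10.32 in helper, 10.34 in cytotoxic, 11.81 in monocytes and 10.73 in B cells) and lowest among the 4 fitted animals in rank 3 (8.17, 8.25, 8.42 and 8.26). HNRNPC, an RNA-binding protein, was lowest in rank 5 in all 4 populations (8.29, 8.47, 8.49 and 8.34), against at least 9.16 in ranks 1 to 3.

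Globin transcripts were abundant in T cell arrays of ranks 1 and 2. HBA1 was at 12.46 and 12.39 in their helper and 12.65 and 12.61 in their cytotoxic arrays, against 10.28 and 10.17 in helper and 9.81 and 10.25 in cytotoxic arrays of ranks 3 and 5. The difference between the types was -0.01 ± 0.12. HLA-DOB, a chain of an MHC class II chaperone, had helper levels of 9.55 (rank 3) and 10.41 (rank 5) against 7.89 (rank 1) and 7.90 (rank 2). Its cytotoxic levels were 9.12, 10.22, 7.83 and 7.87 in the same order. In monocytes of these animals it was at most 8.22, and in B cells it was high in each of them, at 9.92 (rank 1), 10.80 (rank 2), 11.10 (rank 3) and 11.46 (rank 5). No cause was tested.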
